A study of Mus musculus with 12 samples.

Results

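Transcript levels of the phase II conjugating enzymes were followed in mouse small-intestinal organoids exposed to bile acids. Members were taken by gene symbol. For glutathione conjugation they were the cytosolic glutathione S-transferases (Gsta, Gstm, Gstp, Gsto, Gstt and Gstz genes), the kappa class (Gstk) and the microsomal glutathione S-transferases (Mgst). The others were the UDP-glucuronosyltransferases (Ugt1, Ugt2 and Ugt3) and the sulfotransferases (Sult). Of 69 symbols that matched, 1 named as a pseudogene was left out, and 68 members remained among 32587 gene rows. They comprised 26 genes of glutathione conjugation, 21 of glucuronide conjugation and 21 of sulfate conjugation. The organoids are wild type and labelled as duodenum. They are small epithelial structures that intestinal stem cells form in a gel, and all were kept in the same commercial medium. There were 4 groups of 3 libraries, exposed to cholic acid, written CA, to chenodeoxycholic acid (CDCA), to deoxycholic acid (DCA) or to dimethyl sulfoxide (DMSO), a solvent. The acids are labelled at 50 mmol/L, a concentration whose unit is in doubt, and the exposure is given as 2 days in the treatment label and as 96 hours in the protocol, after 2 days of culture. CA and CDCA are primary bile acids, made by the liver, while DCA is a secondary one, made from CA by gut bacteria. CDCA lacks a hydroxyl group that CA carries, and DCA lacks a different one.

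Phase II enzymes join a polar group to a drug, a steroid, a bile pigment or a reactive by-product of metabolism, which makes it more soluble in water and a substrate for export pumps. Glutathione S-transferases add the tripeptide glutathione to electrophiles, UDP-glucuronosyltransferases add glucuronic acid from UDP-glucuronic acid, and sulfotransferases add sulfate from the donor PAPS. The intestinal epithelium, above all its absorptive enterocytes, is a main site of such conjugation outside the liver, and several of these genes are known targets of nuclear receptors and of the electrophile-responsive factor NRF2.

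Levels are given in TPM, each transcript's share of the library scaled for transcript length, so that genes can be compared with each other. The read depth behind a TPM value is unknown. The members held 0.957 to 1.09% of all TPM in DCA libraries, 0.626 to 0.722% in CA, 0.502 to 0.617% in CDCA and 0.462 to 0.592% in DMSO. Libraries of a group were not equally alike. When each library was placed between the average DMSO library (0) and the average DCA library (1) by its values over all tested genes, CDCA replicate 3 stood at 0.522, against 0.101 and 0.171 for the other CDCA libraries, and DMSO replicate 1 stood at 0.331, against 0.0151 and -0.0281 for the other DMSO libraries. Counts of changed members are given also without these libraries. Since they were picked for lying towards DCA, leaving them out widens the gap of the CDCA and DMSO groups to DCA by construction. By construction it also widens their gap to CA, whose libraries stood at 0.311 to 0.456, and narrows the spread within groups. Those counts and p-values are therefore descriptions and add no support. Whether libraries with the same treatment stem from different mice or cultures is not stated, so p-values cover only how far these samples differ, and that spread may be technical.

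In DCA organoids most tested members of all 3 families were higher than in DMSO, and a small number were lower. Of the members, 40 reached 1 TPM in 3 or more libraries and were tested, and among them 30 were higher and 2 were lower in DCA than in DMSO (limma on log2(TPM + 1), Benjamini-Hochberg adjusted p under 0.05). Over all 11952 rows tested, 18.8% were higher and 19.2% lower in DCA, and with mitochondrial and rRNA rows removed 15.9% and 29.0%. The calls comprised 20 higher and 1 lower of 25 glutathione members, 6 higher and 1 lower of 9 glucuronide members, and 4 higher and 0 lower of 6 sulfate members. Among the higher sulfate members, Sult1a1 passed the filter only through its DCA libraries. The median difference was 0.78 for the members and -0.02 for all tested rows, on the log2(TPM + 1) scale, where the change of genes with few transcripts appears too small. All differences below are on this scale, with 95% confidence intervals from limma. The 3 DCA libraries were all above the 3 DMSO libraries for 30 members, and below them for 3 (24.2% and 26.0% of all tested rows). Without CDCA replicate 3 and DMSO replicate 1, 39 members passed the filter and the counts were again 30 higher and 2 lower (18.3% and 25.1% of 11895 rows).

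Summed over all 26 members, glutathione transferase transcripts reached 7861 ± 577 TPM in DCA, against 3692 ± 415 TPM in DMSO (mean ± SD, n = 3). The sums per library were 5364, 4667 and 4994 TPM in CA, 3979, 3658 and 4339.7 in CDCA, 8092, 8286 and 7204 in DCA, and 4128, 3303 and 3646 in DMSO. The DCA libraries lay above all others, and the mean was 2.13 times the DMSO mean. For the 21 glucuronosyltransferases the sums were 1042, 891 and 1088 TPM in CA, 724, 708 and 1021 in CDCA, 1364, 1361 and 1278 in DCA, and 999, 689 and 767 in DMSO, a ratio of 1.63 for DCA over DMSO. For the 21 sulfotransferases they were 246, 204 and 307 TPM in CA, 133, 147 and 281 in CDCA, 487, 499 and 438 in DCA, and 219, 114 and 118 in DMSO, a ratio of 3.17. In each family the DCA sums did not overlap the DMSO sums. The exact two-sided permutation test gave p = 0.1 for each family, the smallest value that 3 against 3 libraries allow.

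**Figure D1:**
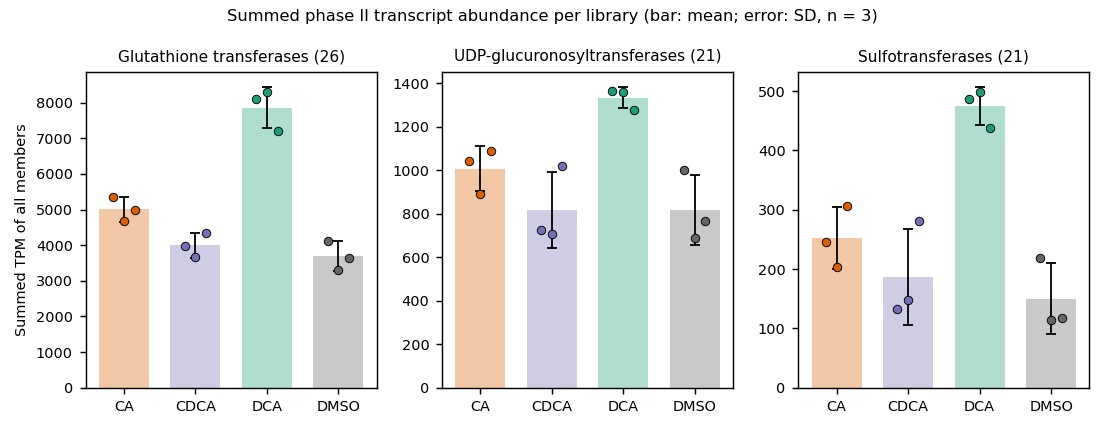
Summed TPM of each family by group, with bars for the mean of 3 libraries, error bars for the SD and a point for each library. The 3 DCA points of each panel lie above all points of CA, CDCA and DMSO, while the CDCA and DMSO points overlap.

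Markers of intestinal cell types moved in the same comparison. Of 15 enterocyte markers, 14 were higher in DCA than in DMSO and 0 lower, and their summed level was 5996 to 7988 TPM in DCA and 2041 to 3353 TPM in DMSO. The sum was 3275 to 4991 TPM in CA and 2229 to 3565 TPM in CDCA, where 0 enterocyte markers were called against DMSO. Of 10 stem cell markers 9 were lower in DCA (157 to 180.1 TPM summed in DCA, 507 to 1039.8 TPM in DMSO), and of 10 proliferation markers 10 were lower (509 to 518 TPM in DCA, 866 to 1138 TPM in DMSO). Of 10 Paneth cell markers 8 were lower, of 10 goblet cell markers 5, of 6 tested tuft cell markers 5, and of 10 enteroendocrine markers 5 were lower and 1 higher. DMSO replicate 1 had the highest enterocyte sum (3353 TPM) and the lowest stem sum (507 TPM) of its group, and CDCA replicate 3 likewise (3565 and 331 TPM), and both also had a higher sum of each of the 3 enzyme families than the other libraries of their groups. The part of these cell types in the results on the members, here and between acids below, was not tested, and in bulk RNA fewer cells of a type and less RNA per cell cannot be told apart. Markers of mesenchymal, immune, and endothelial or glial cells reached sums of 6.43, 5.48 and 5.85 TPM at the highest, with Dcn, Lum and Cdh5 at 0. Hepatocyte markers summed to 58.8 to 84.6 TPM, nearly all from Ttr, with Cyp8b1 at 0. Mitochondrial transcripts took 11.2 to 12.8% of TPM in DCA, 13.6 to 14.4% in CA, 14.2 to 18.1% in CDCA and 14.6 to 20.1% in DMSO.

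The mu class made up the largest share of the glutathione increase. Its 7 genes summed to 3642 ± 288 TPM in DCA and 931 ± 169 TPM in DMSO, 3.91 times as much, and took 46.3% of the family's transcripts in DCA and 25.2% in DMSO. The mu enzymes are cytosolic transferases for epoxides, quinones and other electrophiles. Gstm3 was the most abundant member of any family in DCA, at 24.6% of glutathione transferase TPM, against 10.5% in DMSO, where the pi-class Gstp1 led with 19.2%. Gstm3 stood at 919, 764 and 836 TPM in CA, 592, 559.7 and 734 in CDCA, 2009, 2014 and 1772 in DCA, and 504, 331 and 334 in DMSO. The lowest DCA library had 1772 TPM and the highest DMSO library 504 TPM. The difference between DCA and DMSO was 2.33 on the log2(TPM + 1) scale (2.01 to 2.66, limma adjusted p = 3.24e-06). Gstm1, the next most abundant mu gene, stood at 730.2, 571 and 629 TPM in CA, 487, 437 and 484 in CDCA, 1309, 1334 and 1145 in DCA, and 445, 333 and 365 in DMSO. Its DCA libraries did not overlap any other group, and the DCA minus DMSO difference was 1.73 (1.49 to 1.98, limma adjusted p = 3.18e-06).

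The less abundant mu genes rose as well. Gstm2 had 94.0, 91.9 and 97.7 TPM in CA, 66.9, 68.4 and 86.2 in CDCA, 210.4, 214 and 176 in DCA, and 72.8, 56.9 and 52.3 in DMSO, and Gstm6 had 79.2, 65.0 and 66.8 TPM in CA, 45.7, 44.8 and 69.8 in CDCA, 148, 155 and 123 in DCA, and 47.7, 38.4 and 38.3 in DMSO. Gstm4 had 28.1, 24.9 and 26.9 TPM in CA, 17.8, 16.4 and 26.6 in CDCA, 70.5, 66.5 and 57.0 in DCA, and 20.8, 14.0 and 14.3 in DMSO. In each of these genes the lowest DCA library was above the highest library of every other group. Gstm7 was the least abundant of the class outside DCA, with 9.04, 7.57 and 9.07 TPM in CA, 7.38, 6.65 and 8.04 in CDCA, 22.3, 21.4 and 18.9 in DCA, and 8.06, 6.28 and 5.88 in DMSO. Its DCA libraries stood clear of all others, and its CA and CDCA libraries overlapped those of DMSO. Of the distinct stretches of 31 bases, 37.7% of Gstm3 and 28.8% of Gstm1 occur in transcripts of other genes, chiefly each other's and those of pseudogenes, so the division of reads between them is uncertain, while Gstm2 shared 12.2% and Gstm6 9.62%. The DCA minus DMSO differences were 1.94 for Gstm4, 1.75 for Gstm6, 1.71 for Gstm2 and 1.505 for Gstm7, with limma adjusted p between 9.31e-06 and 2.8e-05.

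Gstm5 was the exception in the class. It had 29.0, 28.2 and 24.1 TPM in CA, 40.2, 33.7 and 20.1 in CDCA, 17.9, 24.4 and 19.3 in DCA, and 26.3, 34.7 and 42.9 in DMSO. Each DCA library was below each DMSO library, and the ranges of CA and CDCA overlapped that of DMSO. It fell by 0.71 on the log2(TPM + 1) scale in DCA relative to DMSO (-1.20 to -0.21, limma adjusted p = 0.027). With DCA replicate 1 or 3 or DMSO replicate 2 or 3 left out, the adjusted p was 0.0695 to 0.103. No stretch of 31 bases of its transcript occurred in a transcript of another gene.

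The mu genes lie in a cluster on chromosome 3, and Gstm5 and Gstm3, which moved in opposite directions, sit in it on opposite strands. The bases before their transcription starts are shown for that contrast, from the RefSeq promoter table on build GRCm38.p6, 250 bases each, written 5′ to 3′ on the strand of the gene. The Gstm3 window is chr3:107969175-107969424 on the minus strand and the Gstm5 window chr3:107895604-107895853 on the plus strand. Capitals mark the antioxidant response element core TGACNNNGC, the letters bound by NRF2 with a small Maf partner, searched on both strands.
Gstm3: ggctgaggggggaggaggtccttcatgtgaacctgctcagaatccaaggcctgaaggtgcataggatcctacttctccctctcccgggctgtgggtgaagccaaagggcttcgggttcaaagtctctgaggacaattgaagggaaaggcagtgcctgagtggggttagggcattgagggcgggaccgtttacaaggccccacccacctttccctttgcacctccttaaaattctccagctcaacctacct
Gstm5: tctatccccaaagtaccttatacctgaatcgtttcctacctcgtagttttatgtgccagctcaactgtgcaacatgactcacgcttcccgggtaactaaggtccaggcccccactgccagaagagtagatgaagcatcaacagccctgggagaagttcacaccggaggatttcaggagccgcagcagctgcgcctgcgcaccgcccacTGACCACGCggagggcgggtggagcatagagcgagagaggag
The letters were found in the window of Gstm5, starting at position -42 from the transcription start, and not in that of Gstm3. That is a statement about these letters in these 250 bases alone, and binding was not tested. Among the 59 members with a window in the table, they were found in 4: Gstm5, which fell in DCA, Gsta3 and Mgst1, and Gstm7, in the window of the second of its listed starts. They occurred in 3 of the 27 members that were higher in DCA and had a window (11.1%), beside 11.5% of the 27025 genes in the table. The dioxin response core GCGTG, letters bound by the aryl hydrocarbon receptor, was found in 7 of those 27 members (25.9%), beside 30.9% of all genes. Gstm5 was the member that held both motifs, and they overlap in the letters in capitals, which end in CACGC, the reverse complement of GCGTG. Repeats of the nuclear receptor half-site AGGTCA with 1 base between the copies, inverted (IR1) or direct (DR1), were found in 0 of the 59 members and in 0.0074% and 0.0407% of all genes.

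The alpha class, which handles lipid peroxidation products and steroids, rose less. Its 5 genes summed to 1700.5 ± 187 TPM in DCA and 959 ± 179 TPM in DMSO, 1.77 times as much. Gsta4, which conjugates the lipid aldehyde hydroxynonenal, had 660.4, 540.0 and 627 TPM in CA, 437, 414 and 570.1 in CDCA, 855, 874 and 737 in DCA, and 540.0, 399.7 and 503 in DMSO. The DCA libraries were the highest 3 of the 12, and the difference from DMSO was 0.78 (limma adjusted p = 0.000839). Gsta3, known in mouse liver for detoxifying aflatoxin epoxide, had 45.2, 53.2 and 51.5 TPM in CA, 44.0, 38.9 and 42.8 in CDCA, 73.3, 73.4 and 66.7 in DCA, and 38.9, 34.1 and 32.4 in DMSO. It showed no overlap between DCA and any other group, nor between CA and DMSO, and its DCA minus DMSO difference was 1.00 (adjusted p = 3.12e-05). Gsta2 had 11.1, 8.20 and 10.3 TPM in CA, 4.59, 5.87 and 8.23 in CDCA, 15.9, 15.4 and 13.0 in DCA, and 6.46, 4.70 and 4.52 in DMSO, with a DCA minus DMSO difference of 1.35 (adjusted p = 0.000189). Gsta5, at 1.53 to 6.50 TPM over all libraries, differed by 0.81 (adjusted p = 0.0148), with an adjusted p of 0.0601 without DCA replicate 1 and 0.0511 without DMSO replicate 3.

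Gsta1 had 689.8, 494 and 572 TPM in CA, 287, 276 and 418 in CDCA, 801, 889.6 and 671 in DCA, and 556, 345 and 404 in DMSO. It was higher in DCA than in DMSO by 0.87 (limma adjusted p = 0.00495), while its CDCA libraries were all below its CA libraries and overlapped those of DMSO. Its level is uncertain as a level of a single gene. Of its distinct stretches of 31 bases, 92.9% occur in another gene's transcripts, 80.3% in those of the predicted gene Gm3776, which itself had 1018, 1046 and 828 TPM in DCA, against 574, 353 and 509 TPM in DMSO. Gm3776 does not match the member symbols, so its transcripts are in neither the class nor the family sums and shares. Gsta2 shared 60.7% of its stretches, most with Gsta1, while Gsta4 shared 0 and Gsta3 2.68%.

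The pi class changed by a smaller factor than the mu and alpha classes. Gstp1, a broad-specificity transferase and the member with the highest mean level in DMSO, had 762, 779 and 718 TPM in CA, 814, 693 and 651 in CDCA, 875, 875 and 837 in DCA, and 689, 691 and 734 in DMSO. The DCA libraries were above all others, by 0.29 relative to DMSO (limma adjusted p = 0.00854). Gstp2 had 163, 174 and 183 TPM in CA, 154, 154 and 168 in CDCA, 273, 271 and 232 in DCA, and 142, 126 and 127 in DMSO and rose by 0.97 in DCA (adjusted p = 2.01e-05). Gstp3 had 97.8, 90.2 and 86.5 TPM in CA, 74.2, 67.7 and 98.0 in CDCA, 125, 116 and 108 in DCA, and 80.6, 55.9 and 50.8 in DMSO and rose by 0.91 (adjusted p = 0.00091). Gstp1 and Gstp2 are near-copies, sharing 38.5% and 60.3% of their stretches of 31 bases with other genes, so the division of reads between them is uncertain, while Gstp3 shared 0.534%. The 3 genes summed to 1237 ± 52.5 TPM in DCA and 899 ± 22.2 TPM in DMSO, a ratio of 1.38.

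The membrane-bound Mgst enzymes also act as lipid hydroperoxide reductases, and Mgst2 can make leukotriene C4. Mgst1 had 299.9, 291 and 357 TPM in CA, 302, 267 and 303 in CDCA, 425, 451 and 412 in DCA, and 309.8, 224 and 270.3 in DMSO. Mgst2 had 101, 86.8 and 87.8 TPM in CA, 61.6, 62.8 and 85.6 in CDCA, 139, 158 and 126 in DCA, and 73.7, 75.0 and 74.5 in DMSO, and Mgst3 had 184, 156 and 158 TPM in CA, 124, 121 and 135 in CDCA, 199, 202 and 188 in DCA, and 154, 129 and 135 in DMSO. For each the 3 DCA libraries were the highest of the 12. The DCA minus DMSO differences were 0.69 for Mgst1, 0.91 for Mgst2 and 0.50 for Mgst3 (limma adjusted p = 0.00056, 0.000189 and 0.000863).

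The remaining classes held both called and uncalled members. Gsto1, an omega-class enzyme that reduces dehydroascorbate and removes glutathione from proteins, had 239.6, 243 and 246 TPM in CA, 224, 208 and 242 in CDCA, 294, 303 and 284 in DCA, and 224, 212 and 226 in DMSO. Its DCA libraries were above all others, by 0.41 relative to DMSO (limma adjusted p = 0.000576). Gstk1, the kappa-class enzyme of mitochondria and peroxisomes, had 16.4, 13.0 and 16.5 TPM in CA, 10.4, 9.53 and 14.7 in CDCA, 23.2, 22.2 and 18.4 in DCA, and 13.1, 8.47 and 12.1 in DMSO and rose by 0.88 (adjusted p = 0.00206). The theta class, which acts on small halogenated compounds, summed to 164 ± 2.61 TPM in DCA and 159 ± 20.9 TPM in DMSO, a ratio of 1.03. Gstt1 had 68.6, 55.4 and 58.1 TPM in CA, 50.0, 48.2 and 51.4 in CDCA, 58.1, 59.7 and 58.9 in DCA, and 62.3, 62.4 and 76.0 in DMSO. Gstt2 had 52.9, 60.8 and 51.8 TPM in CA, 63.8, 54.1 and 54.2 in CDCA, 60.9, 67.0 and 63.7 in DCA, and 44.4, 52.7 and 58.4 in DMSO, and Gstt3 had 41.8, 36.5 and 39.1 TPM in CA, 33.2, 34.8 and 31.1 in CDCA, 42.3, 39.6 and 41.5 in DCA, and 36.6, 35.6 and 48.3 in DMSO. Of these, Gstt2 passed the threshold in DCA, with a difference of 0.30 (adjusted p = 0.0426), and it was not called without DMSO replicate 1 (0.20, adjusted p = 0.148) or with mitochondrial and rRNA rows removed (0.21, adjusted p = 0.102). The adjusted p was over 0.05 with any of 8 of the 12 libraries left out. Gstt1 was lower in every DCA library than in every DMSO library without passing it (-0.18, -0.39 to 0.03). The interval for Gstt3 was -0.19 to 0.28. Gstz1, a maleylacetoacetate isomerase of tyrosine breakdown, had 36.5, 31.2 and 35.6 TPM in CA, 35.2, 32.9 and 32.7 in CDCA, 36.7, 33.8 and 30.7 in DCA, and 28.0, 30.1 and 34.7 in DMSO. Its groups overlapped, and the DCA minus DMSO difference of 0.12 had an interval of -0.10 to 0.34. Gsto2 ranged over 0.223 to 1.43 TPM with overlapping groups, and Gstt4 had at most 0.323 TPM and was not tested.

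**Figure D2:**
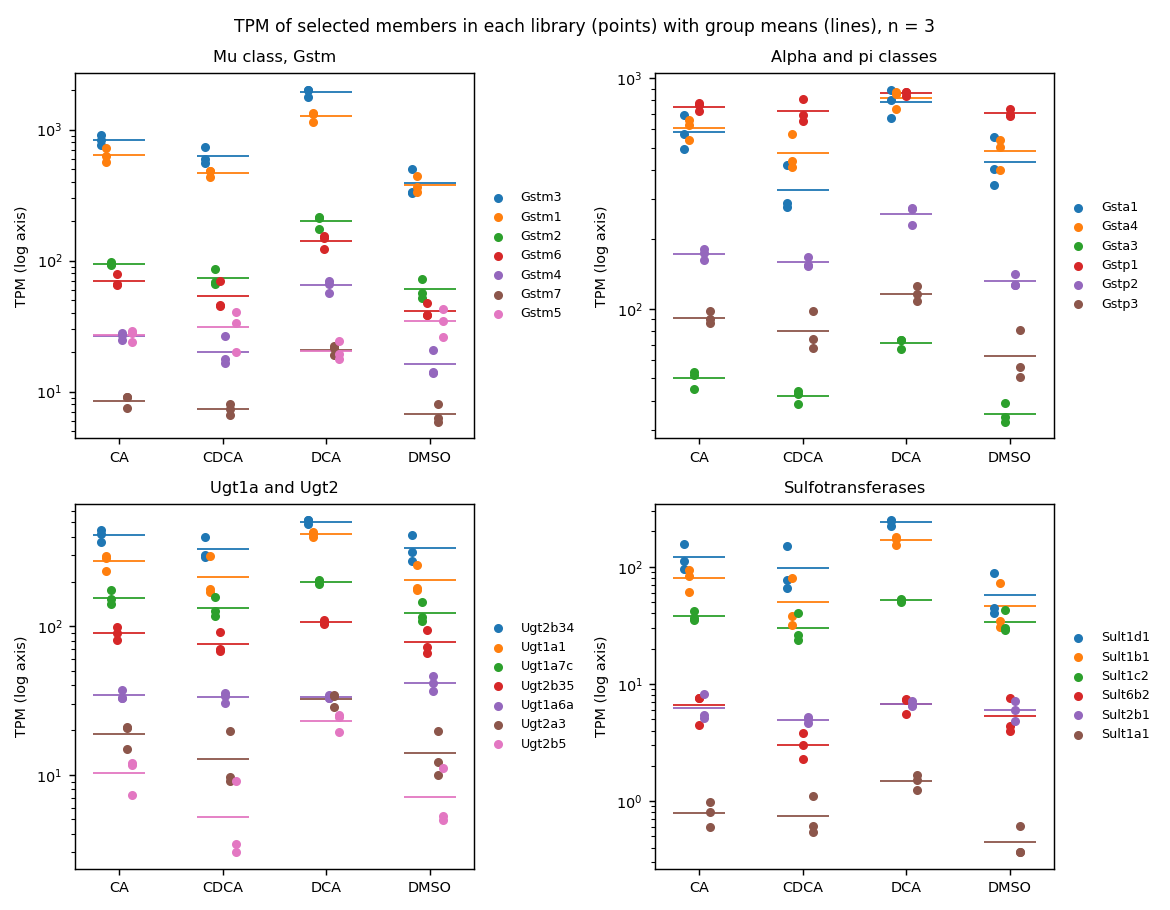
TPM per library on log axes for members of the mu class, the alpha and pi classes, the glucuronosyltransferases and the sulfotransferases, with a point for each library and a line for each group mean (n = 3). Most members stand highest in DCA, while Gstm5 in the mu panel stands lower in each DCA library (17.9 to 24.4 TPM) than in each DMSO library (26.3 to 42.9 TPM).

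Among the glucuronosyltransferases, 9 of 21 genes passed the filter, and 6 of the 9 were higher in DCA than in DMSO. Ugt1a1, the enzyme that conjugates bilirubin, had 299, 236 and 286 TPM in CA, 169, 177 and 298 in CDCA, 428, 417 and 401 in DCA, and 259.7, 175 and 181 in DMSO. Its DCA libraries lay above all others, and the difference from DMSO was 1.04 (0.60 to 1.47, limma adjusted p = 0.00178). Ugt1a7c, an enzyme for phenols, had 153, 140.2 and 175 TPM in CA, 127, 117 and 157 in CDCA, 201, 206 and 193 in DCA, and 145, 109 and 116 in DMSO and rose by 0.71 (adjusted p = 0.000934). Ugt1a6a, which conjugates small planar phenols, moved the other way. It had 33.1, 33.0 and 37.2 TPM in CA, 35.3, 33.7 and 30.6 in CDCA, 32.8, 34.3 and 33.1 in DCA, and 41.3, 36.7 and 46.1 in DMSO. Each DCA library and each CDCA library was below each DMSO library, and the DCA minus DMSO difference was -0.30 (-0.50 to -0.09, adjusted p = 0.0272). With any DCA library or DMSO replicate 3 left out, the adjusted p was 0.0571 to 0.0862. Ugt1a9 ranged over 0.532 to 2.57 TPM, and its DCA minus DMSO difference was -0.09 (-0.56 to 0.38).

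The Ugt1a genes form a single locus on chromosome 1 in which each enzyme has a leading exon of its own, with its own promoter, spliced to exons that all share. Accordingly 58.5% of the stretches of 31 bases of Ugt1a1, 55.7% of Ugt1a7c and 53.0% of Ugt1a6a were found in transcripts of other genes, and the division of reads from the shared exons is uncertain. The windows before the starts of Ugt1a1, which rose in DCA, and of Ugt1a6a, which fell, are shown for that contrast. Both are on the plus strand of GRCm38.p6, Ugt1a1 at chr1:88211709-88211958 and Ugt1a6a at chr1:88134559-88134808, and neither holds the antioxidant response core, so no letters are in capitals.
Ugt1a1: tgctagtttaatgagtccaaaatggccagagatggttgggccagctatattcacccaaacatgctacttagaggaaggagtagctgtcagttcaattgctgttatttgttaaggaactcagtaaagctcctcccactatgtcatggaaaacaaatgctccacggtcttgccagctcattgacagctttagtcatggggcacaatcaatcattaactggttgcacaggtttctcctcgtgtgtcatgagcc
Ugt1a6a: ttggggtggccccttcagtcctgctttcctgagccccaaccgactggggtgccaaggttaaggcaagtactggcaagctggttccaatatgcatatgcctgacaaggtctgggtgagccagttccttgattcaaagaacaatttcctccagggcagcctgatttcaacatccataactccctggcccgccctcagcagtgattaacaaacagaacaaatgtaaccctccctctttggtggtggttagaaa
The window of neither gene held the dioxin response core or the receptor repeats searched, a statement about these letters in these 250 bases alone.

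The Ugt2 enzymes glucuronidate steroids and, in human, bile acids. Ugt2b34 was the most abundant glucuronosyltransferase in all groups, with 419, 369 and 443 TPM in CA, 302, 291 and 401 in CDCA, 518, 518 and 485 in DCA, and 414, 275 and 318 in DMSO. Ugt2b35 had 89.5, 80.4 and 99.0 TPM in CA, 70.4, 67.7 and 91.1 in CDCA, 105, 111 and 104 in DCA, and 95.1, 66.0 and 72.3 in DMSO. The DCA libraries of both were above those of every other group, by 0.61 and 0.47 relative to DMSO (limma adjusted p = 0.00522 and 0.0177), and that of Ugt2b35 was 0.0572 to 0.0811 without DCA replicate 2, DMSO replicate 2 or DMSO replicate 3. Ugt2a3, whose human counterpart acts on bile acids, had 20.9, 14.9 and 20.7 TPM in CA, 9.13, 9.63 and 19.8 in CDCA, 34.5, 34.2 and 28.5 in DCA, and 19.8, 9.95 and 12.2 in DMSO. Ugt2b5 had 11.7, 7.26 and 11.97 TPM in CA, 3.01, 3.41 and 9.04 in CDCA, 25.2, 24.7 and 19.4 in DCA, and 11.0, 5.27 and 4.96 in DMSO. These less abundant genes showed the larger differences, 1.20 for Ugt2a3 and 1.65 for Ugt2b5 (adjusted p = 0.00522 and 0.00351). In both, CDCA replicate 3 and DMSO replicate 1 were well above the other libraries of their groups. Ugt2b5 shared 56.4% of its stretches of 31 bases with other genes, chiefly Ugt2b38. Ugt2b36 had 13.4, 8.62 and 11.95 TPM in CA, 6.92, 7.11 and 12.3 in CDCA, 14.5, 13.8 and 11.3 in DCA, and 11.4, 10.1 and 12.8 in DMSO, with overlapping groups and a DCA minus DMSO difference of 0.19 (-0.24 to 0.62).

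Sulfotransferase transcripts came almost entirely from the Sult1 genes, which held 97.1% of the family's TPM in DCA and 92.3% in DMSO. Sult1d1, a mouse enzyme for catecholamines and other phenols, had 112, 94.9 and 157 TPM in CA, 66.1, 76.6 and 149.6 in CDCA, 248, 249.7 and 221 in DCA, and 88.2, 40.3 and 44.8 in DMSO. The lowest DCA library was above the highest of any other group, and the difference from DMSO was 2.12 (1.36 to 2.87, limma adjusted p = 0.000897). Sult1b1, which sulfates thyroid hormone and phenols, had 83.3, 60.8 and 94.2 TPM in CA, 32.1, 37.9 and 80.7 in CDCA, 172, 181 and 153 in DCA, and 73.3, 30.6 and 34.6 in DMSO. Its DCA libraries were at least 153 TPM and no other library exceeded 94.2 TPM, a DCA minus DMSO difference of 1.95 (1.13 to 2.77, adjusted p = 0.00225). Without CDCA replicate 3 and DMSO replicate 1 the differences were 2.46 for Sult1d1 and 2.33 for Sult1b1. Neither gene shared any stretch of 31 bases with another. Sult1c2, a phenol sulfotransferase, had 36.7, 34.8 and 41.8 TPM in CA, 26.0, 23.9 and 40.4 in CDCA, 51.7, 52.6 and 50.3 in DCA, and 42.9, 30.1 and 28.7 in DMSO and rose by 0.61 (adjusted p = 0.0177). Without DCA replicate 2, DMSO replicate 2 or DMSO replicate 3 its adjusted p was 0.0524 to 0.0695. Sult1a1, also a phenol sulfotransferase, was scarce at 0.366 to 1.67 TPM and rose by 0.77 (adjusted p = 0.003). It reached 1 TPM in the DCA libraries and CDCA replicate 3 alone, so it passed the filter only through the group where it is high. Its call is a description and adds no support.

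Transcripts of the sulfotransferases best known for bile acids were not seen. All 8 Sult2a genes, the family that sulfates bile acids in mouse liver, were listed at 0 TPM in all 12 libraries. Sult2b1, which sulfates cholesterol and pregnenolone, ranged over 4.60 to 8.17 TPM, with a DCA minus DMSO difference of 0.17 (-0.18 to 0.52). The same values stand in every library for the predicted gene Gm5897, so the row may not be of Sult2b1 alone. Sult6b2 ranged over 2.28 to 7.63 TPM, with a difference of 0.34 (-0.17 to 0.84). In all, 28 members were below the filter and 17 of them were at 0 in every library. Beside the Sult2a genes these were Sult1e1, the estrogen sulfotransferase, with Sult1c1, Sult3a1, Sult3a2 and Sult5a1, and 4 glucuronosyltransferases, Ugt2a1, Ugt2a2, Ugt2b37 and Ugt3a2. The 28 comprised 1 glutathione, 12 glucuronide and 15 sulfate genes, and the highest values by family were 0.323 TPM for Gstt4, 0.601 TPM for Ugt1a6b and 0.682 TPM for Sult4a1. A value of 0 in estimated TPM can also be a failed estimate, so absence is not shown.

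**Figure D3:**
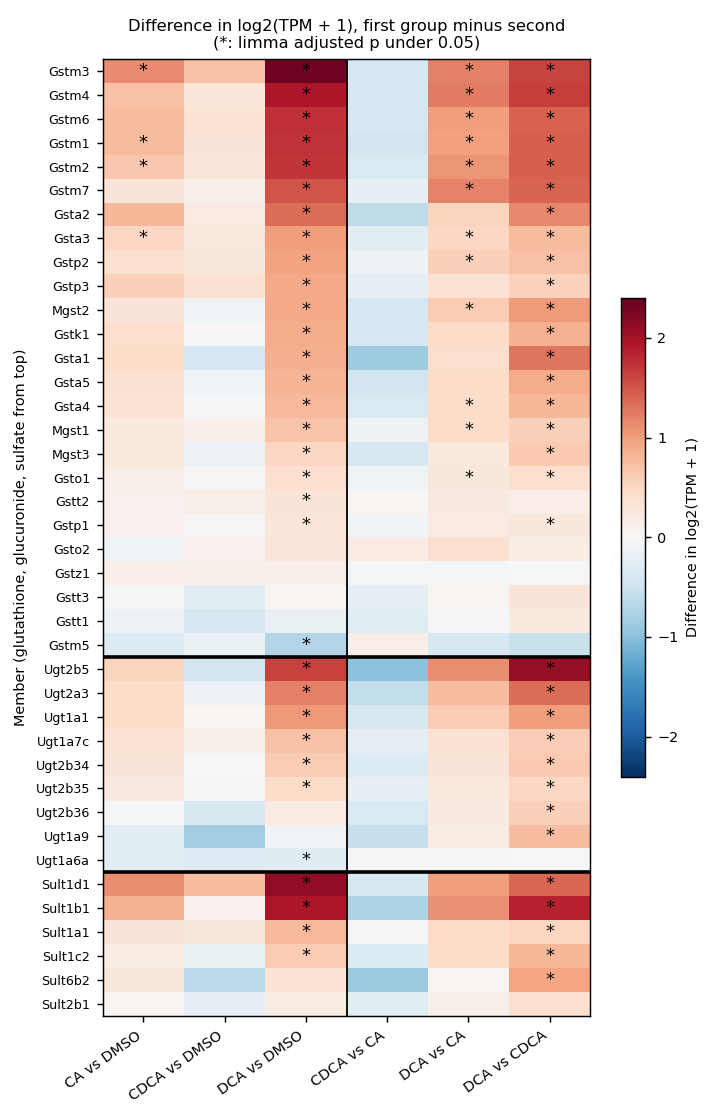
Difference in log2(TPM + 1) for the 40 members tested, in rows grouped as glutathione, glucuronide and sulfate members, and for the 6 comparisons in columns, first group minus second, with red for positive and blue for negative values and an asterisk where the limma adjusted p was under 0.05. The DCA versus DMSO column holds 32 asterisks, 30 of them on positive values, and the CDCA versus DMSO and CDCA versus CA columns hold 0.

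In CA the members that passed the test were 4 glutathione transferases. Of the 40 members, 4 were higher in CA than in DMSO and 0 were lower (0.569% and 0.00837% of all tested rows). They were Gstm3, Gstm1, Gstm2 and Gsta3. Gstm3 averaged 839.6 ± 77.6 TPM in CA, against 389.8 ± 99.1 TPM in DMSO (mean ± SD, n = 3), a difference of 1.13 (limma adjusted p = 0.00903). Gstm1 averaged 643 ± 80.7 TPM in CA, against 381 ± 57.7 TPM in DMSO (0.76, adjusted p = 0.0135). For Gstm2 the difference was 0.65 and for Gsta3 0.50 (adjusted p = 0.0481 and 0.0389). In each of the 4 genes the CA libraries lay above all DMSO libraries. The median over members was 0.31, beside 0.03 over all tested rows, and 33 of the 40 differences were positive. The 3 CA libraries lay above the 3 DMSO libraries for 13 members and below them for 0 (11.8% and 5.21% of all tested rows). The enterocyte markers had a median of 0.68 and the stem markers of -0.51 in CA against DMSO, with 0 called in either list. Sult1d1, which averaged 121 ± 32.0 TPM in CA, against 57.8 ± 26.5 TPM in DMSO, had a large difference that did not pass (1.12, 0.36 to 1.87, adjusted p = 0.173).

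The count for CA moved with single libraries, including CDCA ones, since all 12 share an estimate of spread. Without DMSO replicate 1 it was 9, beside 1.43% of all tested rows, and without CDCA replicate 3 it was 8, beside 2.09%. Without both it was 23 (5.18% of rows, with 2.93% lower and 0 members among them), with Sult1d1 then at 1.46 and Sult1b1 at 1.24 (limma adjusted p = 0.000818 and 0.0011). Given how these libraries were picked, the values without both are descriptions and add no support. Without CA replicate 1, CA replicate 3 or DMSO replicate 2 it was 0 (0.0168 to 0.0839% of rows), and without any other single library it was 2 (0.134 to 0.571%). The share called over all rows moved between these fits too, though not always with the members' count. Without DMSO replicate 3, 2 members were called beside 0.571% of rows, against 4 beside 0.569% with all libraries. The summed TPM was 1.36 times as high in CA as in DMSO for the glutathione family, without overlap (exact permutation p = 0.1, the smallest possible). For the glucuronide and sulfate families the ratios were 1.23 and 1.69, with overlapping libraries (exact permutation p = 0.2 for both).

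In CDCA no member passed the test. By limma, 0 of the 40 were called higher and 0 lower in CDCA than in DMSO (0.510% and 0.0837% of all tested rows, and with median-ratio scaling 0.510% and 0.218%). The CDCA libraries lay above all DMSO libraries for 2 members, Gstm3 and Gstp2, and below them for 5, Gstt1, Gstt3, Sult6b2, Ugt1a6a and Ugt1a9 (6.97% and 3.03% of all tested rows). Gstm3 came closest to the threshold among the higher ones, averaging 629 ± 92.8 TPM in CDCA, against 389.8 ± 99.1 TPM in DMSO, with every CDCA library above every DMSO library (0.71, 0.38 to 1.03, adjusted p = 0.0633). Without CDCA replicate 3 and DMSO replicate 1 it was the single member called (0.79, adjusted p = 0.0014, with 0.563% of rows higher and 0.0925% lower), which is a description and adds no support. On the negative side, Gstt1 had a difference of -0.41 (adjusted p = 0.1) and Ugt1a9 of -0.83 (adjusted p = 0.146), neither past the threshold. Family sums in CDCA were 1.08 times the DMSO mean for glutathione, 0.999 times for glucuronide and 1.25 times for sulfate members, all with overlapping libraries (exact permutation p = 0.4, 1.0 and 0.5). Of 10 enteroendocrine markers, 3 were lower in CDCA than in DMSO and 0 higher. Of the enterocyte, goblet, stem, proliferation, Paneth and tuft markers 0 were called. The comparisons of the 3 acids with DMSO share the same control libraries and are not independent of each other.

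The acids were also compared with each other, as 3 pairs at the same labelled dose and time, each with p-values adjusted over all tested rows. DCA exceeded CDCA in 32 of 40 members and was lower in 0 (12.8% and 15.0% of all tested rows, with 23.3% lower once mitochondrial and rRNA rows were removed), 19 of them glutathione, 8 glucuronide and 5 sulfate genes. The sulfate genes include Sult1a1, which passed the filter only through its DCA libraries. DCA and CDCA carry the same number of hydroxyl groups at different places. The DCA libraries lay above all CDCA libraries for 34 members (21.3% of rows). In the same comparison 14 of 15 enterocyte markers were higher in DCA (list median 1.51), and 10 of 10 stem, 10 of 10 proliferation and 7 of 10 Paneth markers were lower. Of 10 enteroendocrine markers 2 were lower and 1 higher, and 1 of 10 goblet and 2 of 6 tested tuft markers were lower. Ugt2b5, which averaged 23.1 ± 3.17 TPM in DCA, against 5.16 ± 3.37 TPM in CDCA, had the largest difference (2.09, 1.32 to 2.86, limma adjusted p = 0.00198). It was followed by Sult1b1 (1.84), Gstm4 (1.65) and Gstm3 (1.62). Sult6b2, Ugt1a9 and Ugt2b36 were higher in DCA than in CDCA by 0.95, 0.73 and 0.57 (adjusted p = 0.00934, 0.0232 and 0.0484) without having passed the threshold in DCA against DMSO, a difference between the comparisons that was not tested. Leaving out DCA or CDCA libraries singly put the adjusted p over 0.05 in at least 1 case for Gsta5, Gstp1, Gstp3, Sult1a1, Sult1d1, Ugt1a9, Ugt2b35 and Ugt2b36, with a highest value of 0.184 for Ugt2b36 without CDCA replicate 1. Without CDCA replicate 3 and DMSO replicate 1, 31 members were higher and 1, Gstm5, was lower (15.2% and 22.1% of rows).

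DCA and CA, of which DCA lacks a hydroxyl group, differed in 12 members, all higher in DCA and all of glutathione conjugation (5.79% of all tested rows were higher and 8.94% lower, and with median-ratio scaling 10.7% and 10.5%). They were the 6 mu genes other than Gstm5, with Gsta3, Gsta4, Gsto1, Gstp2, Mgst1 and Mgst2. Of the cell type markers, 4 of 15 for enterocytes were higher in DCA than in CA (list median 0.71), and 10 of 10 goblet, 10 of 10 proliferation, 8 of 10 stem and 3 of 10 Paneth markers were lower. Of 10 enteroendocrine markers 5 were lower and 1 higher. Gstm4 averaged 64.7 ± 6.96 TPM in DCA, against 26.7 ± 1.61 TPM in CA, a difference of 1.24 (0.86 to 1.62, limma adjusted p = 0.00233). Gstm3 differed by 1.20, Gstm7 by 1.20, Gstm2 by 1.07, Gstm6 by 1.00 and Gstm1 by 0.98, and the 6 calls outside the class lay between 0.27 for Gsto1 and 0.61 for Mgst2. Leaving out single DCA or CA libraries put the adjusted p over 0.05 for Gsta4 (up to 0.18), Gsto1 (up to 0.0952) and Mgst1 (up to 0.0936). The differences of Ugt2b5 (1.11, 0.34 to 1.88), Sult1b1 (1.09, 0.28 to 1.91) and Sult1d1 (1.00, 0.25 to 1.76) were of like size with wider intervals and did not pass. A fit of the DCA and CA libraries alone called 27 members higher and 1 lower, where 10.7% and 17.7% of rows were called. Without CDCA replicate 3 and DMSO replicate 1 the counts were also 27 higher and 1, Gstm5, lower (9.09% and 14.7% of rows). Leaving out CDCA replicate 3 alone gave 21 higher, beside 7.46% of rows, and without DMSO replicate 1 alone 19, beside 7.00%. The share called over all rows was larger in each of these fits too. The DCA libraries lay above all CA libraries for 29 members (16.9% of rows). Summed TPM in DCA was 1.57 times the CA mean for glutathione, 1.32 times for glucuronide and 1.88 times for sulfate members, without overlap (exact permutation p = 0.1 each, the smallest possible).

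CDCA and CA were not told apart in any single member by limma. The counts were 0 higher and 0 lower (0.00837% and 0.0251% of all tested rows). The differences leaned one way: 37 of 40 were negative, with a median of -0.36, beside 0.00 over all tested rows, and the 3 CDCA libraries lay below the 3 CA libraries in 12 members and above them in 0 (6.47% and 4.19% of rows). The enterocyte markers had a median of -0.73 in CDCA against CA, the goblet markers -0.56 and the stem markers 0.34, with 0, 1 and 0 of them called, the goblet one lower. The enteroendocrine markers had a median of -0.26, with 1 of 10 lower and 0 higher. Gsta1, which averaged 327 ± 79.3 TPM in CDCA, against 585 ± 98.5 TPM in CA, had a difference of -0.85 (-1.28 to -0.42, adjusted p = 0.338), and Gstm1 of -0.45 (-0.69 to -0.21, adjusted p = 0.39). For Gstp1 the interval was -0.23 to 0.09, and for Gstz1 -0.25 to 0.19. Without CDCA replicate 3 and DMSO replicate 1, 20 members were lower in CDCA than in CA (2.88% of rows), among them Ugt2b5 (-1.40), Sult1b1 (-1.14) and Gsta1 (-1.04), with limma adjusted p of 0.00279, 0.00429 and 0.00477. Because leaving these libraries out widens the gap by construction, that count and these p-values are descriptions and add no support. Summed glutathione transferase TPM in CDCA was 0.797 times the CA mean without overlap (exact permutation p = 0.1, the smallest possible).

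**Figure D4:**
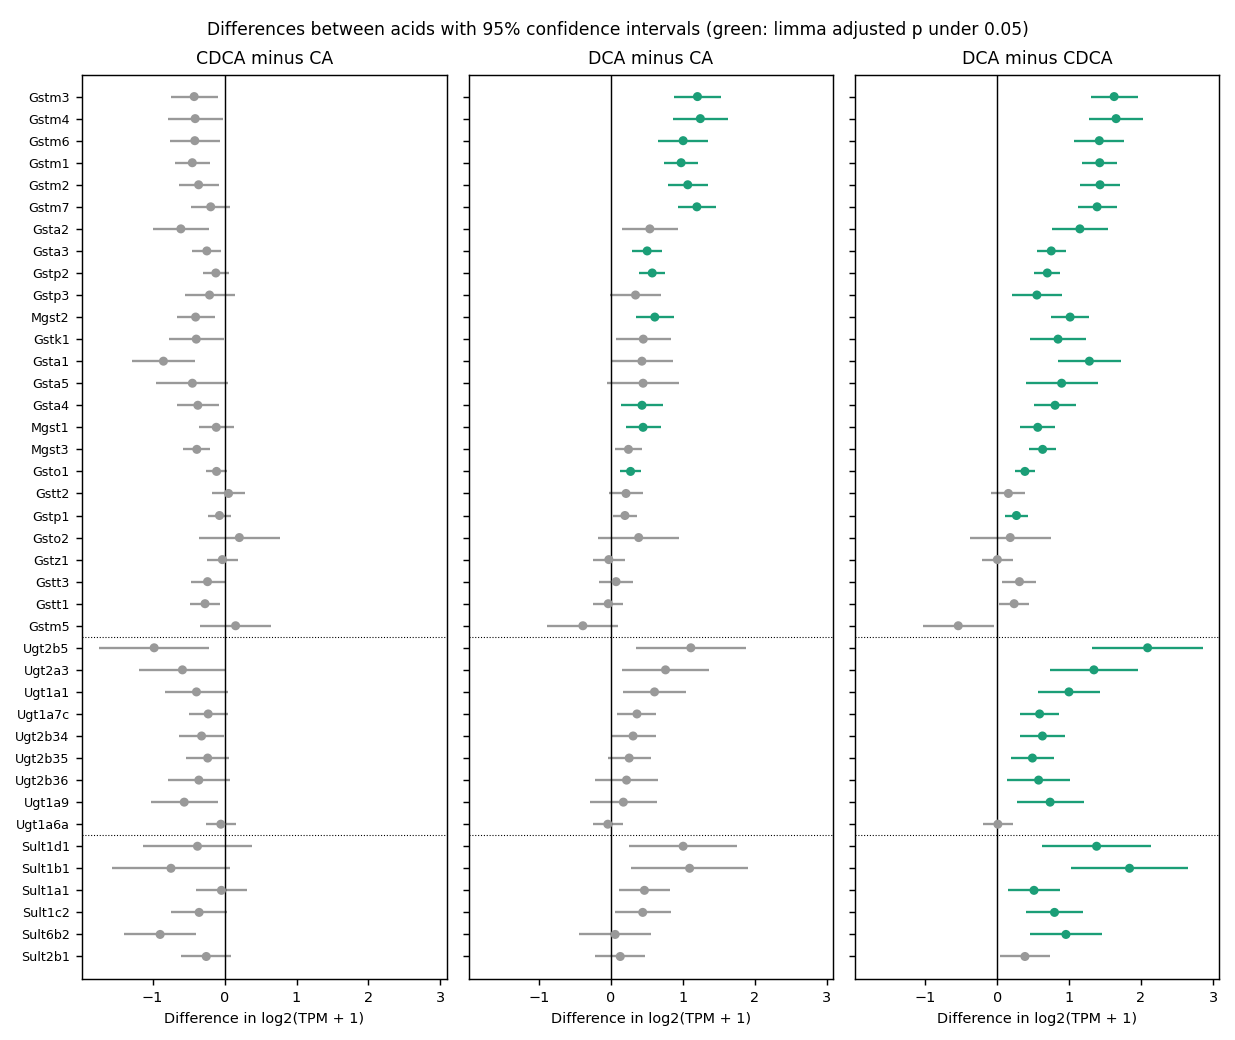
Differences in log2(TPM + 1) between acids for the 40 members, with points for the estimate and lines for the 95% confidence interval, green where the limma adjusted p was under 0.05. In the DCA minus CA panel the 12 green points are all glutathione members, in the DCA minus CDCA panel 32 are green, and in the CDCA minus CA panel 37 of 40 points lie left of 0 and 0 are green.

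The genes that supply and clear conjugates were counted in the same fit, from lists of pathway genes, in DCA against DMSO. Of all tested rows, 18.8% were higher and 19.2% lower in that comparison, the shares to set beside each list count below. In the other comparisons with DMSO, CA and CDCA, 0 genes of the supply, export, regulator and NRF2 lists were called. Of 12 genes for making, recycling and breaking down glutathione, 5 were higher in DCA and 1 lower. Ggt1, the surface enzyme that starts glutathione breakdown, averaged 170.2 ± 38.9 TPM in DCA, against 18.7 ± 8.45 TPM in DMSO (3.17), and Gclm, the regulatory subunit of the rate-limiting enzyme of glutathione synthesis, 86.4 ± 6.63 TPM in DCA, against 49.1 ± 6.11 TPM in DMSO (0.81). Slc3a1, a cystine transporter subunit, rose by 1.09, and Cbs, which makes cystathionine on the route to cysteine, was the gene that fell (-2.24). The catalytic partner Gclc did not pass (-0.15, limma adjusted p = 0.286).

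Of 6 genes for UDP-glucuronic acid, 3 were higher and 1 lower. Ugdh, which makes that donor, averaged 98.8 ± 8.02 TPM in DCA, against 56.3 ± 9.24 TPM in DMSO (0.81), the transporters Slc35d1 and Slc35b1 rose by 0.38 and 0.38, and Gusb, which removes glucuronic acid, fell (-0.63). Of 9 genes for sulfate supply and PAPS turnover, 3 were higher and 3 lower. The chloride and sulfate exchanger Slc26a3, the PAPS synthase Papss2 and the phosphatase Bpnt1 rose by 1.76, 1.47 and 1.31, while Bpnt2 fell (-0.37). Of 10 export pumps, 5 were higher and 1 lower. Abcc2, the apical pump for glutathione and glucuronide conjugates, averaged 132 ± 8.00 TPM in DCA, against 51.3 ± 5.45 TPM in DMSO (1.35), and its basolateral relative Abcc3 rose by 0.69. Abcc10, of the same transporter family, rose by 0.79, and Abcc4 fell (-1.18). The limma adjusted p of these genes lay between 4.35e-05 for Abcc2 and 0.0207 for Slc35b1. Papss1, the other PAPS synthase, averaged 61.7 ± 2.89 TPM in DCA, against 74.4 ± 8.01 TPM in DMSO.

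Of 17 regulators known to act on phase II genes, 10 were higher in DCA than in DMSO and 1 was lower. The xenobiotic receptor Nr1i3 (CAR) averaged 60.7 ± 4.84 TPM in DCA, against 18.8 ± 1.35 TPM in DMSO (1.64, limma adjusted p = 0.000114), and its relative Nr1i2 (PXR) rose by 0.64. Nfe2l2, which encodes NRF2, rose by 0.60, and its inhibitor Keap1 by 0.44. Among 16 NRF2 targets that are no members, 10 were higher and 0 lower, with Me1 (1.71), Osgin1 (1.29), Srxn1 (0.89) and Gclm (0.81), which is on both lists, of the smallest p. The list median was 0.30, beside -0.02 over all tested rows. Of 5 tested targets of the bile acid receptor FXR, 5 were higher in DCA, 4 in CA and 4 in CDCA, each against DMSO. The ileal bile acid-binding protein Fabp6 averaged 239.9 ± 89.1 TPM in CA, 372 ± 332 TPM in CDCA, 1411 ± 283 TPM in DCA and 1.53 ± 0.701 TPM in DMSO. Of 9 tested genes of other conjugation routes, 4 were higher in DCA, namely Tst (0.97), Nat8 (1.61), Ephx1 (0.88) and Ephx2 (1.25). Of 10 genes with a glutathione transferase fold or name outside the member symbols, 1 was higher, Clic5 (0.95), and 3 were lower, Clic1 (-0.36), Gstcd (-0.44) and Clic4 (-0.40).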

How the data were processed

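Poly(A) RNA of 12 organoid libraries was sequenced from both ends with strand kept, per the labels' protocols. The authors deposited for each library a table of gene symbols with a value in TPM, a unit inferred from values that are not whole and sum to similar totals (889156 to 936841). The totals were 932615 to 936841 in DCA and 889156 to 921052 in the other groups. The main fit and the family sums used the values without rescaling. The quantifier Salmon 1.8.0 and build GRCm39 come from the submitters' processing notes, and which annotation or strand setting was used is not given in the sources. Depth is lost in TPM, so no counting interval is given, and a TPM is a share of a total, which a change in abundant transcripts moves.

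The members and all gene lists were chosen with earlier results of these data known. Groups came from the sample labels. The 11952 rows that reached 1 TPM in 3 or more libraries were tested on log2(TPM + 1) with limma 3.58.1 in R 4.3.3: group means over all 12 libraries, trend and robust moderation, two-sided, Benjamini-Hochberg adjustment over all tested rows within each of 6 comparisons at 0.05. For summed TPM, exact permutation tests, two-sided, were used. Members with a group mean of at least 10 TPM (34) are given with every library, all members called in a comparison are named, the other tested ones are given by range and the rest by family counts. Of each pathway list up to 4 genes with the smallest p are named. Gclc and Papss1 were added after their values were seen, as the partners of Gclm and Papss2.

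Shared sequence was counted as distinct 31-base stretches of a gene's GENCODE transcripts (build GRCm38) found in transcripts of other genes. Promoter windows are those of RefSeq. Alternatives were no filter or a filter on the mean, a pseudocount of 0.1, median-ratio scaling, removal of 13 mitochondrial and 2 rRNA rows, a replicate block, a fit of 6 libraries, no trend or robust moderation, adjustment over all 6 comparisons, and leaving out libraries singly or CDCA replicate 3 with DMSO replicate 1.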

Additional observations from a re-analysis of the deposited data

How the results depend on the processing

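No member that passed the threshold changed its direction under any alternative run. Of the calls, 26 of 32 in DCA against DMSO held under every alternative, the exceptions being Gsta5, Gstm5, Gstt2, Sult1c2, Ugt1a6a and Ugt2b35, as did 24 of 32 in DCA against CDCA, 9 of 12 in DCA against CA and 0 of 4 in CA against DMSO. The 26 include Sult1a1, which passed the filter only through its DCA libraries. The family ratios to DMSO moved by less than the spread between libraries under each alternative. That spread was taken over all libraries of the compared groups, so an outlying library that is left out also widens it. Family ratios between acids were not rerun.

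In CA against DMSO the 4 members higher became 2 with no filter, median-ratio scaling, mitochondrial and rRNA rows left out, the replicate block or no trend and robust moderation, 9 with adjustment over all 6 comparisons and 23 without CDCA replicate 3 and DMSO replicate 1, and were 0 to 9 with single libraries left out. Of the rows tested in each fit, 0.569% were higher in the main one and 0.126 to 0.402% in those with 2 members. That share was 3.45% with adjustment over all 6 comparisons, 5.18% without the pair and 0.0168 to 2.09% with single libraries left out. In CDCA against DMSO the 0 higher became 1 with adjustment over all comparisons, without those libraries, and 0 to 1 with single libraries left out, and the 0 lower became 1 with median-ratio scaling or mitochondrial and rRNA rows left out and 2 with adjustment over all comparisons. The shares of rows higher were 0.510% in the main fit, then 1.94%, 0.563% and 0.260 to 0.587%. Those lower were 0.0837% in the main fit, then 0.218%, 0.134% and 0.577%. In DCA against DMSO the 2 lower became 1 with no filter or the 6-library fit, 0 with adjustment over all comparisons, and 0 to 2 with single libraries left out. Beside them stood 19.2% of rows lower in the main fit, then 11.5%, 16.8%, 14.8% and 13.8 to 23.5%. In CDCA against CA the 0 lower became 6 with adjustment over all comparisons, 20 without the pair of libraries, and 0 to 1 with single ones left out. Rows lower there were 0.0251% in the main fit, then 0.979%, 2.88% and 0.0168 to 0.268%. In DCA against CA the 12 higher became 27 with the 6-library fit or without the pair, and 9 to 21 with single libraries left out, and the 0 lower became 1 with the 6-library fit and without the pair. The main fit had 5.79% of rows higher, the others 10.7%, 9.09% and 1.67 to 7.46%. Lower rows were 8.94% in the main fit, 17.7% with the 6-library fit and 14.7% without the pair. In DCA against CDCA the 0 lower became 1 without the pair, and 0 to 1 with single libraries left out. Here 15.0% of rows were lower in the main fit, then 22.1% and 7.73 to 19.1%. Beyond which samples, rows or tests entered, the cause was not tested.

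Removing mitochondrial and rRNA rows put the median of all rows at -0.11 in DCA against DMSO, beside -0.02. Replicate numbers shared between groups did not pair the libraries: of 18 same-numbered pairs 3 had deviations correlated over 0.1 (range -0.38 to 0.11), and 2 of 12 libraries correlated best with their own number. The replicate block gave 29 members higher in DCA against DMSO, beside 17.8% of all tested rows. Depth is unknown, so what it limits cannot be stated.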
